A study of Saccharomyces cerevisiae with 18 samples.

Results

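The chromatin of the 275 nuclear tRNA genes of budding yeast, Saccharomyces cerevisiae, was described, each gene taken with 500 bp on each side. These were all tRNA genes on the 16 nuclear chromosomes of the RefSeq annotation of assembly R64, out of 6431 nuclear genes in all, and the 24 mitochondrial tRNA genes were left out. The genes were 71 to 133 bp long, with a median of 73 bp. Windows of 16 genes overlapped that of a neighbour, so the 275 windows formed 267 separate groups with at most 2 genes in each.

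tRNA genes are transcribed by RNA polymerase III. The factor TFIIIC binds the A and B boxes inside the gene and places TFIIIB just upstream of the start, and TFIIIB then recruits the polymerase. In yeast these genes are known as short, very active units that stay free of nucleosomes. Hmo1 is an HMG-box protein best known from ribosomal DNA and the promoters of ribosomal protein genes. Top1 and Top2 are the topoisomerases that relax the DNA supercoils transcription leaves behind, and E. coli TopA is a bacterial topoisomerase that relaxes negative supercoils.

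Peaks of Hmo1 came from 2 chromatin immunoprecipitation (ChIP) libraries. The first was labelled Hmo1tag with a control plasmid, although its title also names top2-1 and top1Δ; the genotype field and the study's design text were followed. The second was Hmo1tag;top2-1;top1Δ with the plasmid that expresses TopA. Genotype and plasmid therefore cannot be told apart between these 2 libraries. Histone H3 ChIP had 4 libraries, of wild type and of top2-1;top1Δ, each with the control plasmid and with the TopA plasmid. All cells for ChIP had been moved from 28 °C to 37 °C for 2 h 15 min; top2-1 is a temperature-sensitive allele. Contacts of Top2 came from 1 ChIA-PET library of wild type at 28 °C, a method in which ligated pairs of DNA fragments bound by the protein are sequenced. RNA had been sequenced from wild type at 28 °C and, after 60 min at 37 °C, from wild type, hmo1Δ, top2-1 and hmo1Δ;top2-1. The wild-type cells at 28 °C had been released from G1 into S phase, whereas those at 37 °C were in log phase. The labels of the Top2 library disagree, since they name log cells while its protocol describes a release from G1. Every group was 1 library, so no value below has a replicate error and no test between groups was possible.

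The authors' Hmo1 lists held 1511 peaks in the control library and 1933 in the TopA library, which covered 32.1% and 34.6% of the genome. The H3 lists held 22079 nucleosome summits in wild type with the control plasmid, 25035 in wild type with TopA, 21862 in the mutant with the control plasmid and 10841 in the mutant with TopA. The last list stood apart in length and in its spread over chromosomes, with 958 summits on chromosome IV against 2646 to 3049 in the others. On chromosome VI it went the other way, with 731 against 522 to 607. The Top2 list held 1887 clusters, each a pair of anchors joined by 2 to 25 paired-end tags. Read depths behind these lists are unknown. Beside each share of tRNA genes stands the same share over every possible position of the nuclear genome, for windows of the same lengths. It is also given for positions whose centre lies outside coding genes, which fill 72.9% of the genome. Exact Clopper-Pearson 95% intervals treat each gene as a trial and are given for scale only.

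Hmo1 peaks lay within 500 bp of most tRNA genes in the control library and of fewer in the library of the topoisomerase mutant with TopA. With 500 bp on each side, 188 of 275 tRNA genes (68.4%, interval 62.5 to 73.8%) met a peak in the control list, against 45.3% of all positions and 51.6% of positions outside coding genes. In the TopA list 87 genes (31.6%, 26.2 to 37.5%) did so, against 51.5% of all positions and 49.6% of those outside coding genes. The share was 1.51 times that of all positions in the control list and 0.615 times in the TopA list. The tRNA genes thus stood above the genome in the control list and below it in the TopA list.

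Over the tRNA gene alone the same order held. A control peak covered at least 1 bp of 131 genes (47.6%, 41.6 to 53.7%), against 33.1% of all positions and 36.1% outside coding genes. A TopA peak did so for 30 genes (10.9%, 7.48 to 15.2%), against 35.9% and 31.1%. Of the 131 genes under a control peak, 26 (19.8%) were under a TopA peak as well, while 67.1% of all positions under a control peak were. The remaining 105 of the 131 had a control peak only, and 140 genes had neither.

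A TopA peak without a control peak over the gene occurred at 4 tRNA genes. They were YNCE0026W (chrV:469457-469530), SUF9 (chrVI:101376-101478), YNCI0002W (chrIX:175031-175103) and YNCN0010C (chrXIV:560693-560765). All 4 had a control peak within 500 bp.

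**Figure D1:**
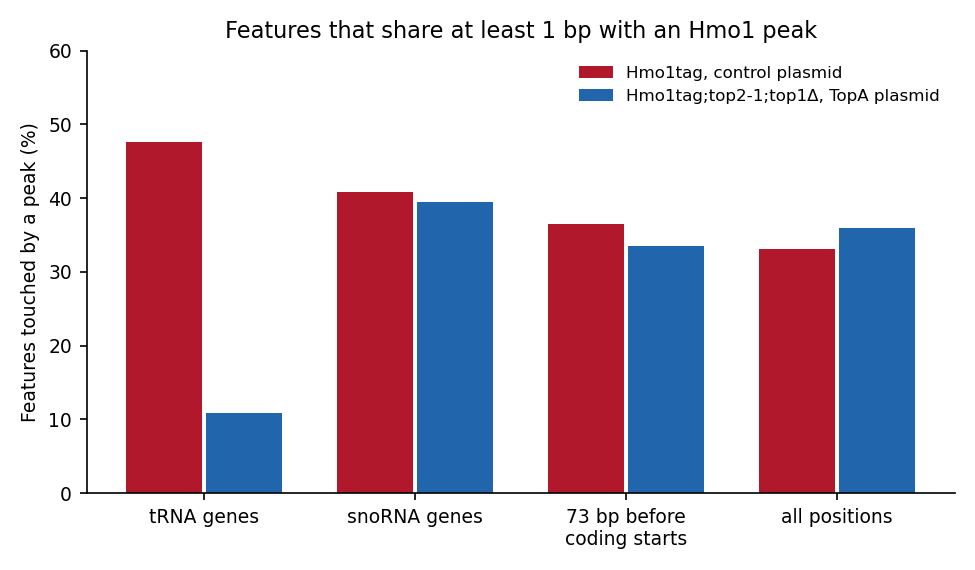
Shares of tRNA genes, snoRNA genes, 73 bp stretches before coding starts and all positions of the genome (x axis) that share at least 1 bp with an Hmo1 peak (y axis, percent) in the 2 libraries, as 1 bar each, without flanks. The tRNA genes show 47.6% in the control list and 10.9% in the TopA list.

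Small nucleolar RNA genes and the 73 bp before coding starts, plotted beside the tRNA genes, served as comparison for short noncoding stretches. All snoRNA genes of the nuclear annotation were taken, with no match to the tRNA genes in length. Of the 76 snoRNA genes, 31 (40.8%) lay under a control peak and 30 (39.5%) under a TopA peak. Of 6001 stretches before coding starts, 36.6% and 33.6% did. With 500 bp on each side the snoRNA genes stood at 56.6% in the control list and 71.1% in the TopA list, the opposite order to the tRNA genes, and the stretches before coding starts at 51.2% and 52.5%. The difference between sets was not tested.

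The Hmo1 signal around the tRNA gene was not symmetric. Oriented by the strand of the tRNA gene, 23.6% of genes were under a control peak 250 bp upstream of the gene's centre, 44% at the centre and 56% at 250 bp downstream. The highest share was 56.7%, from 299 to 303 bp downstream, and the lowest, 23.3%, was reached at 70 places between 838 and 451 bp upstream. In the TopA list the shares were 7.64%, 9.82% and 16% at the same 3 places, all below the 34.6% of the genome that list covers. Midpoints of control peaks gathered downstream as well. Between 250 and 500 bp downstream lay 37 midpoints, where the genome mean gives 8.61, and between 250 bp upstream and the centre lay 7. The TopA list had 7 midpoints at 250 to 500 bp downstream, where the genome mean gives 11.0, and 1 at 250 to 500 bp upstream.

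**Figure D2:**
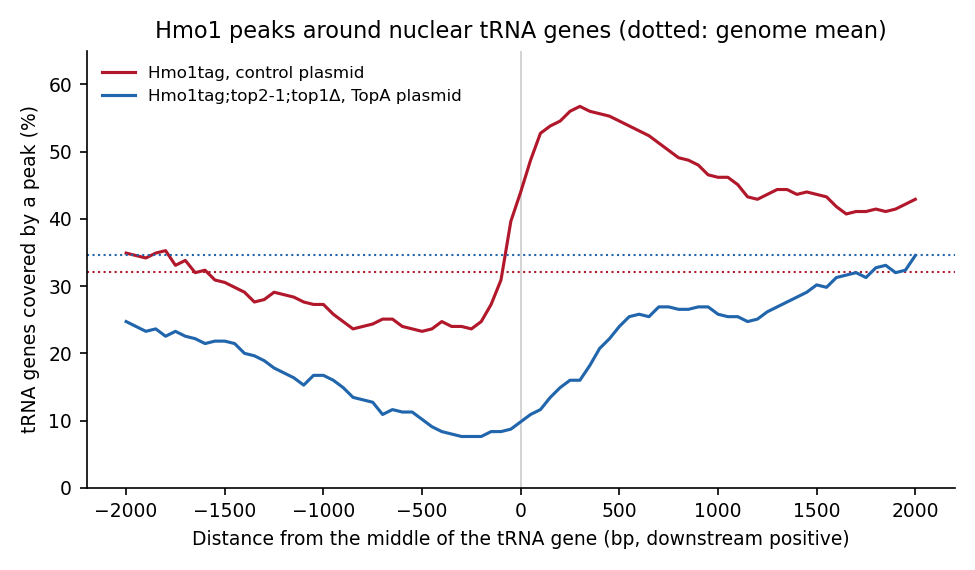
Share of the 275 tRNA genes under an Hmo1 peak (y axis, percent) by distance from the gene's centre (x axis, bp, negative is upstream), for both libraries, with dotted lines for each list's share of the genome. The control line climbs to 56.7% at about 299 bp downstream, while the TopA line stays low across the gene.

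The sides of a tRNA gene also differ in what they hold. Coding genes cover 17.8% of places 500 bp upstream and 66.5% of places 500 bp downstream. The nearest coding gene lay a median of 879 bp away upstream and 306 bp downstream. Among tRNA genes whose downstream neighbour faced them with its start within 1 kb (138 genes), 64.5% were under a control peak at 250 bp downstream. Among those faced by its end (104 genes) the share was 44.2%. In the TopA list the shares were 17.4% and 14.4%. At 500 bp downstream the control shares were nearly level, at 57.2% and 54.8%, and the TopA shares stood in the other order, at 19.6% and 30.8%. The distance to the neighbour differed as well, with medians of 363 bp for all downstream neighbours that showed their start and 220.5 bp for those that showed their end. The part of neighbouring promoters in the Hmo1 peaks was not tested.

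The control peaks that touched a tRNA window numbered 170 of 1511, with a median score, the authors' own value for a peak, of 1.44 against 1.35 for the whole list. In the TopA list 84 of 1933 peaks did, with a median score of 1.18 against 1.17. A wide peak meets any window more easily, so the widths of these peaks are a description only. Their median was 2297 bp against 1319 bp in the control list and 1655.5 bp against 1326 bp in the TopA list. Of the 131 tRNA genes under a control peak, 65 were under peaks of at least 3000 bp. Scores of the 2 lists are not on a common scale.

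The 10 tRNA genes with the highest control score among those with a peak in both lists were led by YNCG0027W (chrVII:661749-661820), at 2.55 in the control list and 1.44 in the TopA list. YNCP0023W (chrXVI:860379-860449) followed with 2.47 and 1.28. YNCE0025C (chrV:443202-443275) scored 2.36 and 1.37, from a peak that lay beside it over SCR1, the gene of the signal recognition particle RNA. TRR4 (chrXII:818609-818680) scored 2.35 and 1.47. The list went on with YNCM0019W (chrXIII:352280-352370), at 2.19 and 1.40. YNCL0039W (chrXII:784354-784453) had 2.15 and 1.32, and YNCL0044W (chrXII:797178-797249) had 2.04 and 1.20. SUP17 (chrIX:248850-248931), YNCL0038W (chrXII:734802-734875) and YNCB0002W (chrII:36398-36488) closed it with control scores of 1.98, 1.95 and 1.94. The peak covered the gene itself in 9 of these 10 in the control list and in 6 in the TopA list.

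By chromosome, more tRNA genes lay under a control peak than under a TopA peak on 14 of 16 chromosomes, and as many on the other 2. On chromosome IV, 13 of 28 tRNA genes were under a control peak and 0 under a TopA peak, and on chromosome XV 10 of 20 and 0. On chromosome XII the counts were 17 of 21 and 5, on chromosome XVI 13 of 17 and 2, and on chromosome X 16 of 24 and 2. The exceptions were chromosome I, with all 4 genes under a peak in both lists, and chromosome VIII, with 1 of 11 in both. The control share exceeded the list's own cover of the chromosome on 12 chromosomes, and the TopA share fell below it on 14. Chromosome VI stood apart, since the TopA list covered 8.05% of it and the control list 30.4%. Its tRNA genes stood at 10% and 20% in those lists.

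**Figure D3:**
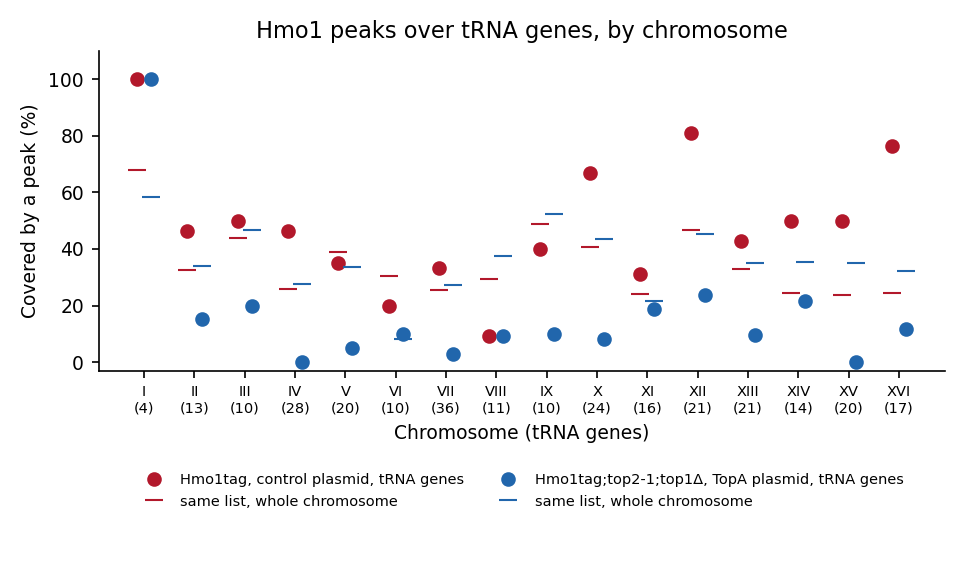
Share of each chromosome's tRNA genes (number in brackets) under an Hmo1 peak, as dots, beside the share of the whole chromosome the list covers, as bars (y axis, percent). The dots of the 2 libraries are level on chromosomes I and VIII, and the control dot is higher on the other 14.

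Other genes of RNA polymerase III gave mixed results. SNR6, the U6 spliceosomal RNA gene (chrXII:366235-366346), lay under a control peak with a score of 1.84 and under no TopA peak. SCR1 (chrV:441987-442508) lay under a peak of both lists, with scores of 2.36 and 1.37. RPR1, the gene of the RNase P RNA (chrV:117667-118035), also lay under both, with 1.88 and 1.32. SNR52, a snoRNA gene (chrV:431129-431220), lay under neither.

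Almost no called nucleosome was centred on a tRNA gene. A summit, the centre of a called nucleosome in the authors' lists, fell inside 0 of 275 tRNA genes in wild type with the control plasmid, in wild type with TopA and in the mutant with the control plasmid. A count of 0 of 275 allows a share of up to 1.09% by a floor of 3 counts, and the exact Clopper-Pearson bound is 1.33%. In the mutant with TopA it fell inside 1 gene (0.364%), YNCC0009C (chrIII:151284-151356), at position 151350. Over all positions the shares in these 4 lists were 14.6%, 16.5%, 14.4% and 7.16%. Outside coding genes they were 2.25%, 2.82%, 3.21% and 3.2%. Of the 76 snoRNA genes, 2, 4, 3 and 1 held a summit. Of the 6001 stretches of 73 bp before coding starts, 1.02%, 2.15%, 3.22% and 1.92% did. Low shares were thus common to these short stretches, and the difference between sets was not tested. None of the 4 other RNA polymerase III genes held a summit in any list.

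The gap reached well beyond the gene. With 500 bp on each side, 71 genes (25.8%) held a summit in wild type with the control plasmid, against 77.8% of all positions and 56.7% outside coding genes. The counts were 77 (28%) in wild type with TopA, against 83% and 63.8%, and 79 (28.7%) in the mutant with the control plasmid, against 75.6% and 63.4%. In the mutant with TopA it was 29 (10.5%), against 40.9% and 36.2%. All 4 libraries thus showed fewer summits near tRNA genes than at positions outside coding genes, the list that stood apart included. At the 76 snoRNA genes the shares in the same order were 21.1%, 39.5%, 43.4% and 13.2%. The snoRNA share was thus below that of tRNA genes in wild type with the control plasmid and above it in the other lists. The stretches before coding starts stood at 66.8%, 76.9%, 75.0% and 37.7%. The difference between sets was not tested. No summit lay within 500 bp in any of the 4 lists at 132 tRNA genes (48%), a state shared by 6.99% of all positions and 17.4% of those outside coding genes.

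**Figure D4:**
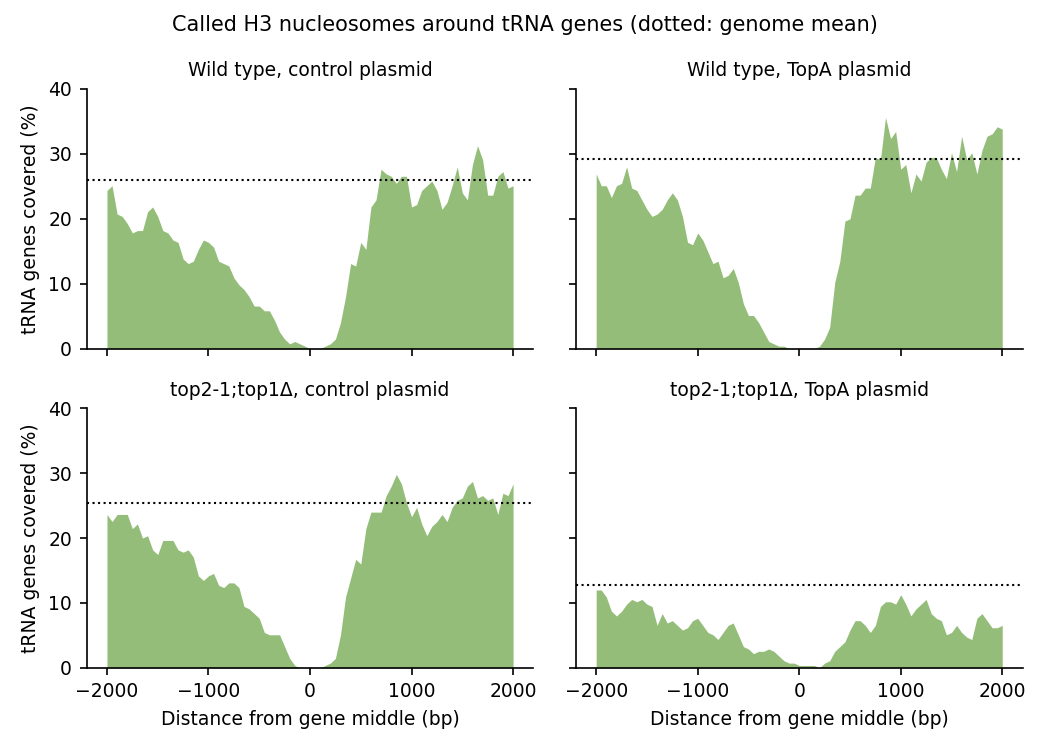
Share of tRNA genes covered by a called H3 nucleosome (y axis, percent; 1 panel a library) by distance from the gene's centre (x axis, bp, negative is upstream) in the 4 libraries. Dotted lines give each list's share of the genome. Coverage drops to 0 or close to it around the gene in all 4, and in the first 3 it is back near the genome's share by about 1000 bp downstream but not upstream.

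Called nucleosomes, each listed as 148 bp around its summit, covered none of the 275 genes over a stretch of 171 bp in wild type with the control plasmid. That stretch ran from 43 bp upstream of the centre to 127 bp downstream. It was 303 bp long in wild type with TopA and 294 bp in the mutant with the control plasmid. In the mutant with TopA the longest such stretch was 82 bp and lay downstream of the centre.

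More summits lay downstream than upstream of tRNA genes in 3 libraries, and the counts were close to even in the mutant with TopA. Within 500 bp there were 28 upstream and 55 downstream in wild type with the control plasmid, and 21 and 73 in wild type with TopA. The mutant had 36 and 66 with the control plasmid and 19 and 21 with TopA. The genome mean gives 252, 285, 249 and 124 summits on each side. Coding sequence filled 8.18% of the upstream flanks and 35.8% of the downstream flanks. In wild type with the control plasmid, coding bases near tRNA genes held 1.42 summits per kb upstream and 1.02 downstream, against 2.41 in all coding sequence. Noncoding bases held 0.0950 and 0.0566 per kb, against 0.275. Both kinds of flank thus held fewer summits per kb than all coding and all noncoding sequence. Coding bases this near a tRNA gene can belong to the start or the end of a coding gene, and these were not counted apart. No comparison was made with starts and ends of coding genes elsewhere. In wild type with TopA coding bases held 0.801 per kb upstream and 1.38 downstream, against 2.72, so the order of the sides differed. The nearest summit lay a median of 1339 bp upstream and 824 bp downstream in wild type with the control plasmid, and 2864 bp and 4072 bp in the mutant with TopA. Summits near tRNA genes had slightly lower median signals than all summits, at 1.50 against 1.55 in wild type with the control plasmid and 1.67 against 1.84 in the mutant with the same plasmid.

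The other marks were counted at tRNA genes with and without a control Hmo1 peak over them. A summit within 500 bp was found at 24.4% of the 131 genes under a peak and at 27.1% of the 144 others in wild type with the control plasmid. In the mutant with TopA the shares were 6.11% and 14.6%, which rest on 8 and 21 genes. A Top2 anchor was near 46 of the 131 (35.1%) and 53 of the 144 (36.8%).

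Top2 anchors touched tRNA windows about as often as other positions. With 500 bp on each side, 99 of 275 genes (36%, interval 30.3 to 42.0%) met an anchor, against 34.3% of all positions and 34.7% of those outside coding genes, a ratio of 1.05. Over the gene alone 35 genes (12.7%) did, against 13.6% and 14.7%, so the order of the shares changed with the window. These shares are near the background and are no result about the tRNA genes. At the 76 snoRNA genes the share within 500 bp was 32.9%.

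**Figure D5:**
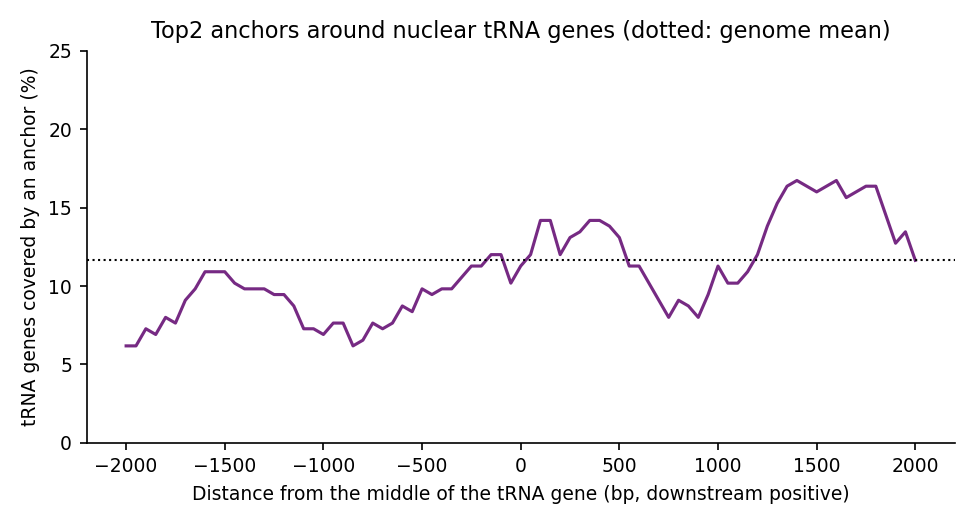
Share of tRNA genes under a Top2 anchor (y axis, percent) by distance from the gene's centre (x axis, bp, negative is upstream), with a dotted line at the 11.6% of the genome that anchors cover. The line stands at 11.3% at the centre and 13.1% at 250 bp downstream.

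The clusters at tRNA genes were counted beside the whole list. There were 110 clusters with 261 tags, of which 80% had the lowest number of 2 tags, against 79.4% of all clusters. Of these 110, 20 (18.2%) joined different chromosomes, against 20.2%, and 15 (13.6%) joined the ribosomal DNA region of chromosome XII, against 17.8%. The median span of clusters within a chromosome was 1508.5 bp, against 1449 bp.

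The highest sum of tags was 8, at YNCL0032C (chrXII:592519-592619). YNCI0011W (chrIX:370417-370488) and YNCH0005W (chrVIII:134321-134392) followed with 7 each. YNCO0002W and YNCP0008C had 6, and SUF3, YNCD0011W, YNCD0012W and YNCL0035C had 5. The tenth place was tied at 4 tags. A single cluster joined 2 different tRNA genes, YNCH0004C (chrVIII:133026-133107) and YNCH0005W, with 2 tags and a span of 1450 bp. Among clusters joining the ribosomal DNA region, that of YNCK0006C had 4 tags and those of SUP11 and YNCG0038C had 3.

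Coding genes beside tRNA genes had a slightly lower median in hmo1Δ than coding genes at large, and many of the 2-fold drops lay in long genes of shared exact length. Of 280 coding genes within 500 bp of a tRNA gene, 254 passed a mean of 20 counts over the 5 libraries. Their median log2 ratio of hmo1Δ to wild type at 37 °C was -0.20, with an order-statistic interval over genes of -0.25 to -0.08, against -0.02 for all 5599 coding genes kept. At least 2-fold lower were 36 genes (14.2%), against 4.86% of all genes kept, and at least 2-fold higher 11 (4.33%), against 6.64%.

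That filter counts the 28 °C library, which is outside the comparison. Of the 36 lower neighbours, 11 averaged under 20 counts over the 2 libraries compared, and 1, YDR210C-C, was at or under 3 counts in both. With a mean of 20 counts over those 2 libraries, 25 of 232 neighbours (10.8%) were lower, against 4.5%, and 10 (4.31%) higher, against 6.71%.

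A hyphen in the systematic name marked 15 of the 36, and without such genes 21 of 221 (9.50%) were lower, against 4.25%, and 9 (4.07%) higher, against 6.54%. Of those 21 lower genes, 5 were exactly 5269 or 5314 bp long, lengths that 24 and 10 coding genes share. They were YMR045C, YER138C, YER160C, YCL019W and YML039W. Of 16 neighbours of these lengths, hyphenated or not, 15 were lower. Among all genes kept without a hyphen, 229 of 5386 were lower, and 222 of 5377 once these lengths were also left out. Only a few lower genes of these lengths without a hyphen were thus not within 500 bp of a tRNA gene. How far those lay from a tRNA gene was not examined, and a link to the tRNA gene was not tested. Without hyphenated names and these lengths, 16 of 215 neighbours (7.44%) were lower, against 4.13%, and 9 (4.19%) higher, against 6.55%. With the filter over 2 libraries as well, it was 16 of 210 (7.62%), against 4.09%, and 8 (3.81%), against 6.59%, with a median of -0.16. Among these lower genes were MCD4, BAR1 and PGM1, at -2.62, -2.48 and -1.48, named after their values were seen. The estimated counts are fractional where reads were shared between features, so values of near-identical or overlapping genes are uncertain. Not all such genes were left out by these rules. YMR046C lies wholly inside YMR045C, has another length and was still among the 9 higher of 215 neighbours.

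In top2-1 the median was 0.01, and 2 genes (0.787%) passed 2-fold upwards and 3 (1.18%) downwards, against 0.697% and 0.411% of all genes kept. In hmo1Δ;top2-1 it was -0.05, with 9 higher (3.54%) and 23 lower (9.06%), against 3.66% and 3.32%. Without hyphenated names and the repeated lengths, 0 neighbours were lower in top2-1 and 5 of 215 (2.33%) in hmo1Δ;top2-1, against 2.75% of all genes kept by the same rule, so no excess was left there. All 3 comparisons share the wild-type library. In hmo1Δ the median was -0.15 for the 113 neighbours of tRNA genes under a control Hmo1 peak and -0.21 for the 141 others.

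The lowest neighbours in hmo1Δ were YDR261W-B, with 834 counts in wild type and 52 in hmo1Δ, a log2 ratio of -4.30, YDR034C-D at -3.65 and YOR192C-B at -3.23. YGR038C-B and YPR137C-B had 20.7 and 12.9 counts in wild type and 0 in hmo1Δ. With a floor of 3 counts per library they were at least 8.75-fold and 5.44-fold lower. The highest was YMR046C, with 0 counts in wild type and 38.7 in hmo1Δ, at least 10.2-fold higher. It lies wholly inside YMR045C, which had 359 and 48.3 counts and a log2 ratio of -3.20, so its value is uncertain. GND2, a phosphogluconate dehydrogenase, had 225 and 3368 counts and a log2 ratio of 3.56. CPP3 had 3.17, MNC1 2.41 and SDH9 2.12.

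The genes whose proteins serve tRNA genes passed 2-fold about as often as other coding genes in hmo1Δ. None of 20 genes for TFIIIC, TFIIIB, the regulator MAF1 and RNA polymerase III was 2-fold higher in hmo1Δ, and 1 was 2-fold lower, RPC25, a polymerase subunit, at -1.06, where 6.64% and 4.86% of all genes kept were. All 10 polymerase subunits listed had negative log2 ratios, with a median of -0.60, against a median of -0.02 for all genes kept. The 6 TFIIIC genes had a median of 0.06, from -0.83 for TFC6 to 0.49 for TFC1. Of the TFIIIB genes BRF1 stood at -0.35, BDP1 at 0.05 and SPT15 at 0.46, and MAF1, which represses the polymerase, at 0.10. In top2-1 and in hmo1Δ;top2-1 none of the 20 was 2-fold changed. Of all genes kept, 0.697% were 2-fold higher and 0.411% lower in top2-1, and 3.66% and 3.32% in hmo1Δ;top2-1. A count of 0 among 20 is near those shares and is no result about these genes. Of the 10 polymerase subunits, 4 had negative log2 ratios in top2-1, with a median of 0.12. In hmo1Δ;top2-1 7 did, with a median of -0.43.

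The RNA libraries say little of the tRNA genes themselves, since the labels describe a poly(A) selection. In wild type at 28 °C 45 of 275 tRNA features had counts, with 26033 in all or 0.176% of the library, 12389 of them at tG(CCC)D. At 37 °C the sums were 1 in wild type, 0 in hmo1Δ, 0 in top2-1 and 2 in hmo1Δ;top2-1.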

How the data were processed

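Saccharomyces cerevisiae libraries had been made by Hmo1 ChIP, H3 ChIP, Top2 ChIA-PET and RNA sequencing. Of 18 samples, 6 were ChIP inputs with no file used here. The authors' deposited Hmo1 lists give each peak with a score, and their nucleosome lists give a summit with a signal and a fuzziness score. The deposited Top2 list gives counts of paired-end tags per cluster. The deposited RNA tables give expected counts and TPM per gene. Per the submitters' processing notes, RNA used STAR and RSEM, ChIP used Picard, SAMtools and deepTools, and the Top2 library used cutadapt, BWA, Picard and bedtools. The peak and nucleosome callers, their thresholds and the handling of reads that map to several places are not given in the sources used here. This bears on tRNA genes, which are repeated. The notes name R64 for the RNA and ChIP files and no build for Top2. As deposited, 90 Top2 clusters joined the start and the end of 1 coding gene. When shifted by 500 to 2000 bp either way, 41 to 58 did. The list was read as R64. Smaller shifts were not tried, so the check cannot tell R64 from a build that differs by less.

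Overlap means at least 1 bp. Shares over positions were counted at every position of the chromosomes, with lengths taken as the largest coordinate seen, and with no random draw. Nucleosome coverage used the deposited intervals, each 148 bp long. RNA ratios are log2 CPM with a prior count of 2 after TMM scaling over the 5 libraries in edgeR 4.0.16 (R 4.3.3), from expected counts rounded to whole numbers, for genes whose mean over the libraries reached 20 counts; 2-fold is a rule of size. Total expected counts per RNA library were 4752471 to 14770300. Intervals cover counting error only, at the 95% level. Overlaps were computed in Python 3.11.15 with pandas 2.3.3 and scipy 1.17.1, and the overlap counts were tested on simulated data. Size factors from DESeq2 1.42.0 were an alternative.

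Named tRNA genes were the 10 highest control Hmo1 scores among genes with a peak in both lists, and the 10 highest Top2 tag sums. Further named were clusters joining 2 tRNA genes, the 5 highest and 5 lowest coding neighbours in hmo1Δ, and every member of the RNA polymerase III lists. The genes with no summit near them in any list, 132 in number, are given as a count. Members and lists were chosen with earlier results of these data known.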

Additional observations from a re-analysis of the deposited data

Results flagged for a closer look

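The 2 Hmo1 libraries went opposite ways at tRNA genes. The share of tRNA windows that met a peak was 1.51 times the share of all positions in the control library and 0.615 times that share in the library of Hmo1tag;top2-1;top1Δ with TopA. With 1 library in each group the difference was not tested. Genotype, plasmid and the single libraries cannot be told apart in it.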

How the results depend on the processing

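Of 73 alternatives tried over 10 results, 13 moved the value and 2 turned the direction. Of the other 58, 12 could only return 0, since the 3 H3 lists with 0 summits in tRNA genes stay at 0 under a stricter list, another background or fewer genes, so 46 bear on stability. The ratio to all positions for control Hmo1 peaks was 1.37 with 1000 bp on each side, 1.89 for peak midpoints, 1.33 against positions outside coding genes and 2.01 for peaks narrower than 3000 bp, a choice made after seeing the data. For TopA peaks it was 0.304 over the gene alone, 0.441 for midpoints and 0.839 for peaks narrower than 3000 bp. The Top2 ratio fell below 1, to 0.934, over the gene alone and also to 0.934 for clusters with more tags than the median. Counting H3 summits within 500 bp, chosen after seeing the data, gave ratios of 0.332, 0.337 and 0.380 in wild type with the control plasmid, wild type with TopA and the mutant with the control plasmid. Scaling by library totals put the median of the coding neighbours in hmo1Δ at -0.43 and TPM at -0.45, where the medians of all genes were -0.26 and -0.31. In hmo1Δ;top2-1 the TPM median was -0.20, against -0.15 for all genes. In hmo1Δ, 36 neighbours were at least 2-fold lower, 25 with a filter over the 2 libraries compared and 16 without hyphenated names and repeated long lengths, choices made after seeing the data; in hmo1Δ;top2-1 the counts were 23, 14 and 5, and in top2-1 3, 0 and 0. The cause of these moves was not tested. No paired analysis was possible because every group held 1 library and the labels give no replicate numbers. Leaving out a replicate was not possible for the same reason. The unknown depth of the ChIP libraries limits how far any count of peaks or summits can be read.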
